A study of Mus musculus with 4 samples.

Results

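The complement components and anaphylatoxin receptors were examined in mouse dendritic cells as a group of 8 genes chosen by name. They are the chains of C1q (C1qa, C1qb, C1qc), the central component C3, the alternative pathway factors B (Cfb) and properdin (Cfp), and the receptors for C3a (C3ar1) and C5a (C5ar1). The platform annotation paired 7 of the 8 symbols with probe sets of their own, 13 in all, among 18193 genes on the arrays. C3 was not paired with a probe set there and was not analysed here. Each of the 7 reached the floor of 28.9, the median signal of all arrays together, on at least 1 array, and 4 did so on all 4 arrays.

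Bone marrow of wild-type (WT) mice or of mice without LXRα and LXRβ, the liver X receptors (LXR-DKO), all of the strain labelled C57/BL6, was grown for 6 to 7 days with the growth factor GM-CSF at 20 ng/mL and enriched for cells carrying CD11c. The cells were then held for 24 h with GM-CSF at 10 ng/mL, as control or immature cells, or with the same GM-CSF and 100 ng/mL of lipopolysaccharide (LPS), a bacterial product used here to mature them. The 4 groups, called WT control, WT LPS, LXR-DKO control and LXR-DKO LPS, had 1 array each, which leaves every difference without a replicate check or a p-value, and this number of arrays limits precision. The number of mice behind each culture is not given in the sources used here, and the deletion is described as a combined deficiency of both receptors, with no cell type named for it.

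Complement is a cascade of plasma proteins that marks microbes and dying cells for removal. C1q recognises antibody complexes and damaged cells and opens the classical pathway, factor B and properdin build and hold the convertase of the alternative pathway, and the fragments C3a and C5a attract and activate leukocytes through their receptors. Most plasma complement comes from the liver, while C1q and properdin are made largely by myeloid cells, among them macrophages, dendritic cells and, for properdin, neutrophils.

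Promoter letters are shown for members that carried the contrast described next, the C1q chains on one side and C3ar1 on the other. RefSeq on GRCm38.p6 gave a start for 5 of the 7 measured members, and C1qa and Cfb had no entry. The lines give the 250 bases before the start, all on the minus strand, at chr4:136886201-136886450 for C1qb, chr4:136892915-136893164 for C1qc and chr6:122856158-122856407 for C3ar1. Capitals mark matches, on either strand, to GAGGAA, the core of sites bound by ETS factors such as PU.1, and to TGCTGA, the half-site of MAF factors.
C1qb: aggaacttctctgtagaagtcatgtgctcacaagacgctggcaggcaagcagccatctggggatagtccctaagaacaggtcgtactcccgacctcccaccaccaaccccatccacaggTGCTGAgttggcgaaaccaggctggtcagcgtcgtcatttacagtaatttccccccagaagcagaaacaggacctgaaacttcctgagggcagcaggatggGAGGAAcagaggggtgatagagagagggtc
C1qc: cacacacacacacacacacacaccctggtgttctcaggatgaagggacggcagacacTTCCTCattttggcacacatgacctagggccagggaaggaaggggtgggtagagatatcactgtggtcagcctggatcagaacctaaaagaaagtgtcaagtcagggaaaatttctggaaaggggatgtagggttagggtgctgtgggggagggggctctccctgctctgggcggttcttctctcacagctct
C3ar1: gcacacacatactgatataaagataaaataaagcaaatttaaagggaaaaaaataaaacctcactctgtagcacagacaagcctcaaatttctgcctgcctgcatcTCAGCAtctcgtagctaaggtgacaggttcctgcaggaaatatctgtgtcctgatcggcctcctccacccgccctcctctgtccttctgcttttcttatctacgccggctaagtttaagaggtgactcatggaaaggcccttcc
GAGGAA or its reverse complement was found before C1qb and C1qc and in 23.3% of all 32851 such windows. TGCTGA was found before C1qb, C3ar1 and C5ar1 and in 16.1% of all windows. The letters GAAA followed after any 2 bases by GAAA, an interferon-response type of element, were in 0 of the 5 windows and in 2.98% of all, and the LXR type of repeat, AGGTCA again after any 4 bases, was in 0 of the 5 and in 0.0152% of all. No match of one motif overlapped that of another in the printed windows, and matches describe the letters only.

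All arrays shared a trimmed mean signal of 200.0, with 47.8% to 52.6% of probe sets at or above the floor. As a measure of spread, the SD of log2 ratios among probe sets for one gene was taken, pooled over all genes with several. It came to 0.29 for LPS over control in WT, 0.42 for the same in LXR-DKO, 0.45 for LXR-DKO over WT without LPS and 0.54 with LPS. Probe sets of a gene are read on the same arrays, so this spread leaves out variation between cultures and between arrays. Ratios with 1 value below the floor are lower limits on their size and are given as "at least". The targeted gene Nr1h3, which encodes LXRα, had signals of 108.6 and 54.5 in WT, control then LPS, and 40.4 and 27.0 in LXR-DKO, and where its probe set lies relative to the deleted part is not known here. The DC integrin gene Itgax, which encodes CD11c, was between 3848.1 and 6093.0 on all arrays. Of the markers of conventional dendritic cells, Xcr1 was below the floor on all arrays, and Flt3 reached it only in LXR-DKO LPS. Most markers on that list had more signal in LXR-DKO than in WT. Without LPS, 7 of 11 measured passed 2-fold upward, against 12.7% of all genes, and the median log2 ratio was 2.56. With LPS 9 of 12 did, against 17.8%, with a median of 2.14. In both conditions 0 passed 2-fold downward. Itgax itself was lower, at -0.19 without LPS, within the spread of 0.45, and -0.66 with LPS, beyond the spread of 0.54.

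The 3 C1q genes were bright in both LXR-DKO cultures and dim in both WT cultures. C1qa, the A chain, had signals of 18.0 and 1.5 in WT, control then LPS, and 5335.4 and 2680.3 in LXR-DKO. Both WT values were below the floor and both LXR-DKO values were far above it, so LXR-DKO exceeded WT at least 185-fold without LPS and at least 92.7-fold with LPS. C1qb, the B chain, had 108.4 and 1.8 in WT, control then LPS, and 6280.6 and 4087.0 in LXR-DKO by its brightest probe set. Here WT control was above the floor and WT LPS was not, and the ratio of LXR-DKO over WT was 57.9-fold without LPS and at least 141-fold with LPS. The C chain gene C1qc had 41.4, 0.8, 5386.1 and 2566.9 in the same order of groups, a 130-fold difference without LPS and at least 88.8-fold with LPS. In cultures of this kind, more cells of a C1q-expressing type and more C1q RNA per cell cannot be told apart.

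The other probe sets of C1qb went the same way. Its next probe set had signals of 103.4, 18.0, 5085.3 and 3284.5 in WT control, WT LPS, LXR-DKO control and LXR-DKO LPS, and the last had 72.4, 20.0, 4528.7 and 2080.3. Both have the suffix for targets that may be shared with other transcripts. The log2 ratios of LXR-DKO over WT without LPS lay between 5.62 and 5.97 over the 3 probe sets, a range narrower than the spread between probe sets in general, and were at least 6.17 to at least 7.14 with LPS. Among the 11728 genes measured without LPS, the log2 ratio of C1qa ranked 1st, that of C1qc 3rd and that of C1qb 8th from the highest. With LPS, C1qb ranked 2nd, C1qa 3rd and C1qc 5th of 12014. C1qa, C1qb and C1qc thus stood near the upper end of both distributions, where several values are lower limits and their order is not fixed.

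**Figure D1:**
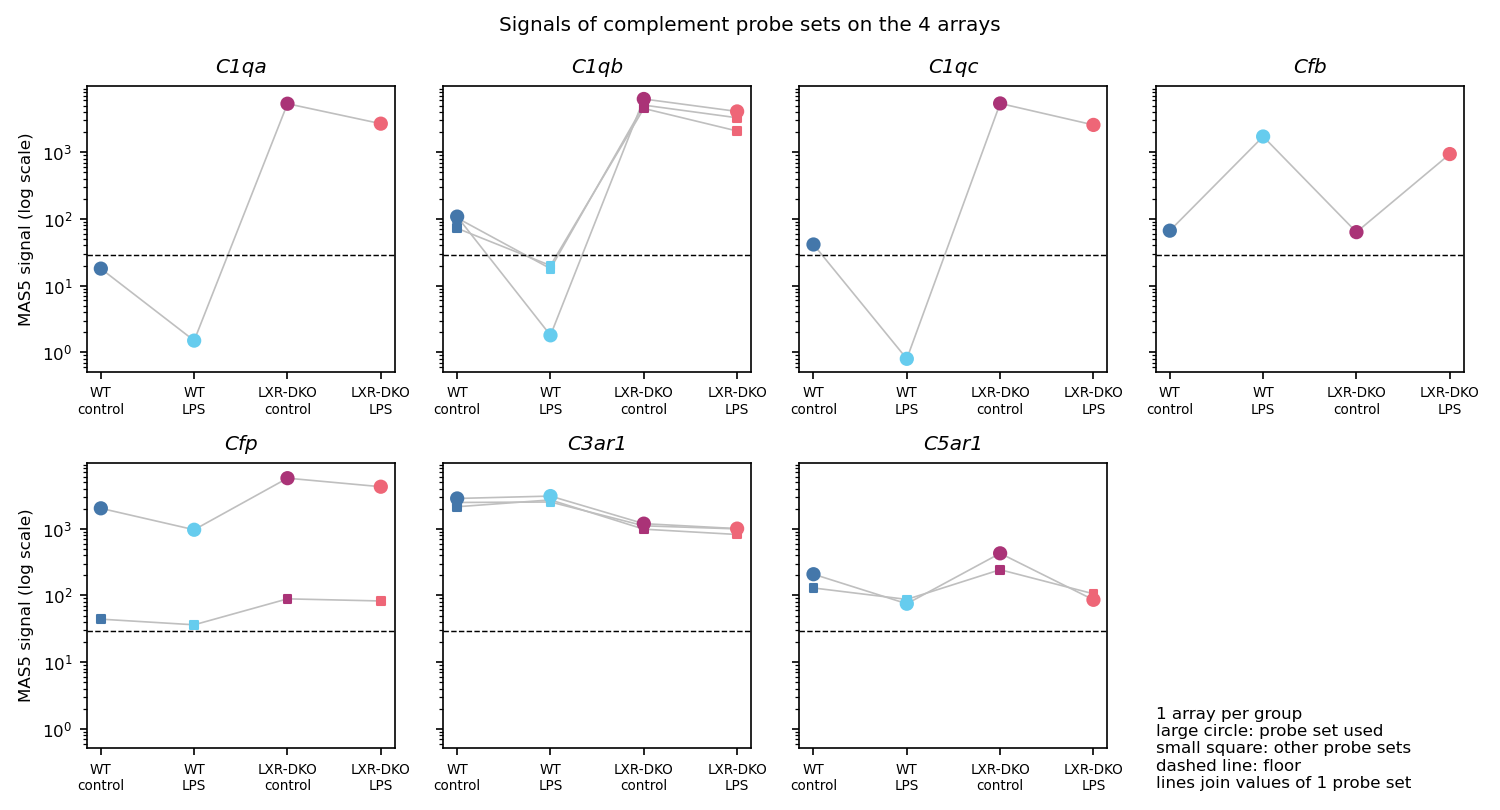
Signal of each member probe set (MAS5 units, log scale) on the 4 arrays, with 1 array per group; large circles are the probe set used for the gene, small squares its other probe sets, grey lines join the values of 1 probe set and the dashed line is the floor of 28.9. The C1q probe sets were above 2000 on both LXR-DKO arrays and at most 108.4 on both WT arrays, Cfb was bright on both LPS arrays, and C3ar1 was lower on both LXR-DKO arrays.

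With LPS the C1q genes were lower within LXR-DKO. For C1qa the change from 5335.4 to 2680.3 is a log2 ratio of -0.99, that of C1qc was -1.07 and that of C1qb -0.62, with -0.63 and -1.12 for its other probe sets. The sizes exceed the spread of 0.42 for this comparison, and only C1qc passed 2-fold by the probe set used. In WT, LPS cells had at least 3.75-fold less C1qb signal than control cells, and C1qc, already near the floor in WT control, was at least 1.43-fold lower. C1qa had no ratio in WT, with both values below the floor. With the floor lowered to 8.8, the pooled 25th percentile, the WT limits on the log2 ratio became -3.62 for C1qb and -2.23 for C1qc. At the floor of 28.9 the direction of the difference of the responses was known for C1qb alone among the C1q genes, at least 1.29 on the log2 scale, being less negative in LXR-DKO. That limit depends on the probe set: it was 1.29 for the one used, 0.20 for the lowest of the 3 and 1.21 at their median.

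The C1q genes lie side by side on chromosome 4, in the order C1qb, C1qc, C1qa in RefSeq, and the bright genes around the trio did not show a difference of that size. Of the 4 protein-coding genes on either side, Ephb2 had no probe set used here, and Lactbl1, Epha8 and Wnt4 were below the floor on all arrays. Kdm1a, a histone demethylase gene, had a log2 ratio of LXR-DKO over WT without LPS of 0.15, the cytoskeletal regulator gene Cdc42 of -0.04 and Zbtb40 of 0.98, each under 2-fold, against 5.86 or more for the trio. Tex46 was near the floor, with 15.3 and 32.3 in WT and LXR-DKO control cells, which gives only a lower limit of 0.16.

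Markers of other cell types were set beside the C1q signals. Of 13 macrophage markers, 12 had probe sets, and their summed signal was 37879.2 and 50048.0 in WT, control then LPS, and 32306.7 and 34600.9 in LXR-DKO, lower in LXR-DKO in both conditions. The median log2 ratio of LXR-DKO over WT of those measured was -0.07 without LPS and -0.37 with LPS, against 0.05 and 0.15 over all genes. The defining tissue macrophage markers Cd163 and Timd4 were below the floor on all arrays. Among the 9 macrophage markers measured without LPS, 1 passed 2-fold upward, against 12.7% of all genes, and 3 downward, against 9.28%. The one upward was the Fc receptor gene Fcgr1 at 2.06. Those downward were the lipid-sensing receptor gene Trem2 at -3.91, Mrc1 at -2.36 and Cd68 at -1.31. Among the 10 measured with LPS, 1 passed 2-fold upward, against 17.8%, and 2 downward, against 8.76%. Summed neutrophil markers, 11 of 13 with probe sets, were 9840.4, 12919.3, 22994.1 and 27416.1 in the same order of groups, and 7 of 11 measured exceeded WT at least 2-fold in LXR-DKO control cells, against 12.7% of all genes. Mmp8, the neutrophil collagenase gene, was lower at -1.04 without LPS and -1.37 with LPS. Its WT signals of 7882.0 and 9716.4 made up most of the WT sums. Summed monocyte markers, 3 of 6 with probe sets, were 869.8, 257.1, 2499.6 and 1163.0. Summed conventional DC markers, 13 of 14 with probe sets, were 14510.1, 13051.7, 32168.3 and 36431.6. Summed B cell markers, 8 of 9 with probe sets, were 2182.0, 4007.1, 3744.4 and 7445.3. Both without and with LPS, 4 of 8 exceeded WT at least 2-fold in LXR-DKO and 1 was lower. Over all genes, 12.7% were higher and 9.28% lower without LPS, and 17.8% and 8.76% with LPS. The immunoglobulin gene Ighm had 162.5, 84.2, 2911.2 and 4119.2, while the adaptor gene Blnk was lower at -3.20 and -1.42. Blnk had 1686.0, 3547.1, 183.8 and 1324.1, so it made up most of the WT sums. Ms4a1, Cd79a and Cd79b were below the floor on both WT arrays and above it on both LXR-DKO arrays. Summed mast cell, basophil and eosinophil markers, 12 of 12 with probe sets, were 668.2, 511.7, 1951.5 and 2741.2. In LXR-DKO over WT, 5 of 9 measured were at least 2-fold higher without LPS, against 12.7% of all genes. With LPS 8 of 9 were, against 17.8%, though Ccr3, Tpsb2 and Cma1 were below the floor on all arrays. Summed T and NK cell markers, 6 of 8 with probe sets, were between 107.3 and 159.1, with Cd3e and Ncr1 below the floor on all arrays. The part of these cell types in the C1q difference was not tested.

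Cfb, which encodes the catalytic subunit of the alternative pathway convertase, was the member that was higher with LPS, in both genotypes. Its signals were 66.7 and 1720.2 in WT, control then LPS, and 63.4 and 938.6 in LXR-DKO, by its single probe set. Both LPS arrays were more than an order of magnitude above both control arrays. The WT ratio was 25.8-fold and the LXR-DKO ratio 14.8-fold, which placed Cfb 14th from the highest of 11449 genes in WT and 28th of 11793 in LXR-DKO. In control cells the genotypes differed by less than the spread between probe sets, with a log2 ratio of -0.07. With LPS the ratio of LXR-DKO over WT was -0.87, larger than the spread of 0.54 and under 2-fold, but -1.17 with the arrays scaled to the same 75th percentile and -1.004 when centred on the median ratio. The difference of the responses was -0.80.

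Cfb lies in the class III stretch of the major histocompatibility complex on chromosome 17, next to C2, its close relative of the classical pathway. C2 was dim, with 31.7 and 22.8 in WT, control then LPS, and 8.2 and 1.8 in LXR-DKO, and so gave no sizeable ratio. Of the 8 protein-coding genes nearest to Cfb, 7 were measured without LPS, and 6 of them exceeded WT at least 2-fold in LXR-DKO: Stk19 at 1.34, Dxo at 1.15, Skiv2l at 1.30, Nelfe at 1.53, Zbtb12 at 1.37 or more and Ehmt2 at 1.25 on the log2 scale. Over all genes, 12.7% were at least 2-fold higher in this comparison. With LPS 5 of 6 measured were, against 17.8%, and Skiv2l stood at 0.86. Under 75th percentile scaling these counts were 5 and 4, and after quantile normalization 6 and 3, with all but C2 above 0. Cfb itself, in their midst, did not share that difference in either condition. These neighbours were looked at after the members' values were seen.

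Cfp encodes properdin, which stabilises the alternative pathway convertase, and it was higher in LXR-DKO in both conditions. The bright probe set had signals of 2023.3 and 965.4 in WT, control then LPS, and 5724.2 and 4262.6 in LXR-DKO. Each LXR-DKO value was above both WT values, and each LPS value was below the control value of its genotype. The ratio of LXR-DKO over WT was 2.83-fold without LPS and 4.42-fold with LPS. The second probe set was dim at 44.1, 36.3, 88.9 and 82.6 and gave smaller log2 ratios of 1.01 and 1.19, against 1.50 and 2.14 for the bright one. With LPS, Cfp was lower at -1.07 in WT and -0.43 in LXR-DKO on the log2 scale, while the dim probe set gave -0.28 and -0.11. The WT ratio was under 2-fold after scaling to the same 75th percentile, at -0.93, and at the median over both probe sets, at -0.67. In LXR-DKO the LPS difference was about the size of the spread between probe sets.

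Cfp is on the X chromosome, and sex-linked transcripts differed between the genotypes. Xist, the transcript of the inactive X chromosome, had signals of 30.8 and 22.7 in WT, control then LPS, and 2750.0 and 2090.4 in LXR-DKO. The Y-linked gene Eif2s3y had 736.6, 721.0, 279.6 and 384.3, so both kinds of transcript were present in the LXR-DKO cultures. The nearest X-linked genes went both ways in LXR-DKO over WT without LPS: of 7 measured, Syn1 was higher at 1.47, Timp1, an inhibitor of matrix proteases, was lower at -2.27 and the other 5 were under 2-fold. Of the neutrophil markers, 7 of 11 exceeded WT at least 2-fold in control cells and 1 was lower, against the same 12.7% and 9.28%. With LPS 9 of 10 were higher and 1 lower, against 17.8% and 8.76%. The part of sex and of neutrophils in the Cfp difference was not tested. Xist and Eif2s3y differed between the same arrays that every ratio of LXR-DKO over WT compares. Sex is not given in the labels, and its part in the ratios between genotypes of the C1q genes, C3ar1 and all other genes was not tested either.

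C3ar1, the receptor for C3a, was lower in LXR-DKO in both conditions and nearly level with LPS. Its brightest probe set had signals of 2842.9 and 3085.8 in WT, control then LPS, and 1191.4 and 1003.8 in LXR-DKO. Both LXR-DKO values were below both WT values. The LXR-DKO signal was 2.39-fold lower without LPS and 3.07-fold lower with LPS. The 3 probe sets gave log2 ratios between -1.25 and -1.12 without LPS and between -1.72 and -1.34 with LPS, all past 2-fold. The other 2 probe sets had 2474.6, 2514.9, 1105.9 and 994.0, and 2135.7, 2703.3, 984.6 and 819.5, in WT control, WT LPS, LXR-DKO control and LXR-DKO LPS. The LPS response of the gene was 0.12 in WT and -0.25 in LXR-DKO, each smaller than its spread of 0.29 and 0.42, so that the order of control and LPS is not resolved in either genotype.

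2 genes near C3ar1 on chromosome 6 were lower in LXR-DKO too. Necap1, an endocytosis gene, was at -0.94 without LPS and -1.34 with LPS, and Clec4a3, a C-type lectin receptor gene, at -1.94 and -2.25. On the other side Foxj2 was at 0.63 and 0.91, and the glucose transporter gene Slc2a3 at 2.66 and 3.46. The genes of this stretch therefore did not go one way.

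**Figure D2:**
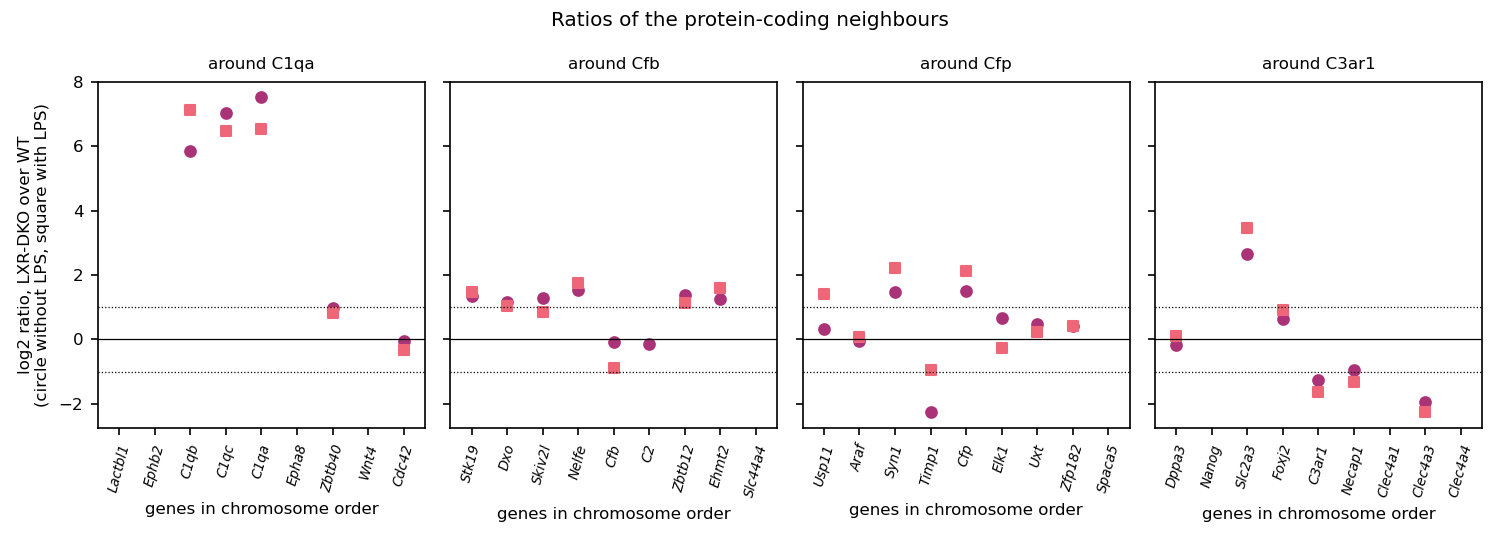
Log2 ratio of LXR-DKO over WT (vertical axis) without LPS (circles) and with LPS (squares) for C1qa, Cfb, Cfp and C3ar1 and up to 4 protein-coding genes on each side, in chromosome order; dotted lines mark 2-fold, a gene with no point was not measured, and limits are drawn at the limit. The C1q genes stood apart from their neighbours, most genes around Cfb were above 1 while Cfb was not, and those around Cfp and C3ar1 went both ways.

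C5ar1, the receptor for C5a, was lower with LPS in both genotypes. Its brightest probe set had signals of 208.0 and 75.1 in WT, control then LPS, and 427.9 and 86.0 in LXR-DKO. Both LPS values were below both control values, and the highest was LXR-DKO control. C5ar1 was 2.77-fold lower with LPS in WT and 4.98-fold lower in LXR-DKO, the latter the 3rd lowest of 11793 genes. The second probe set had 129.4, 87.2, 243.0 and 105.8 and gave smaller log2 ratios, -0.57 in WT and -1.20 in LXR-DKO, against -1.47 and -2.31. The median over both was -1.02 in WT and -1.76 in LXR-DKO. Between genotypes the log2 ratio was 1.04 without LPS, just past 2-fold, but 0.85 after scaling to the same 75th percentile and 0.91 after quantile normalization, and 0.97 at the median over its probe sets. With LPS it was 0.20, smaller than the spread of 0.54, and its sign turned to -0.10 and -0.20 under those scalings. C5ar2, the second C5a receptor gene beside it on chromosome 7, was not analysed here.

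**Figure D3:**
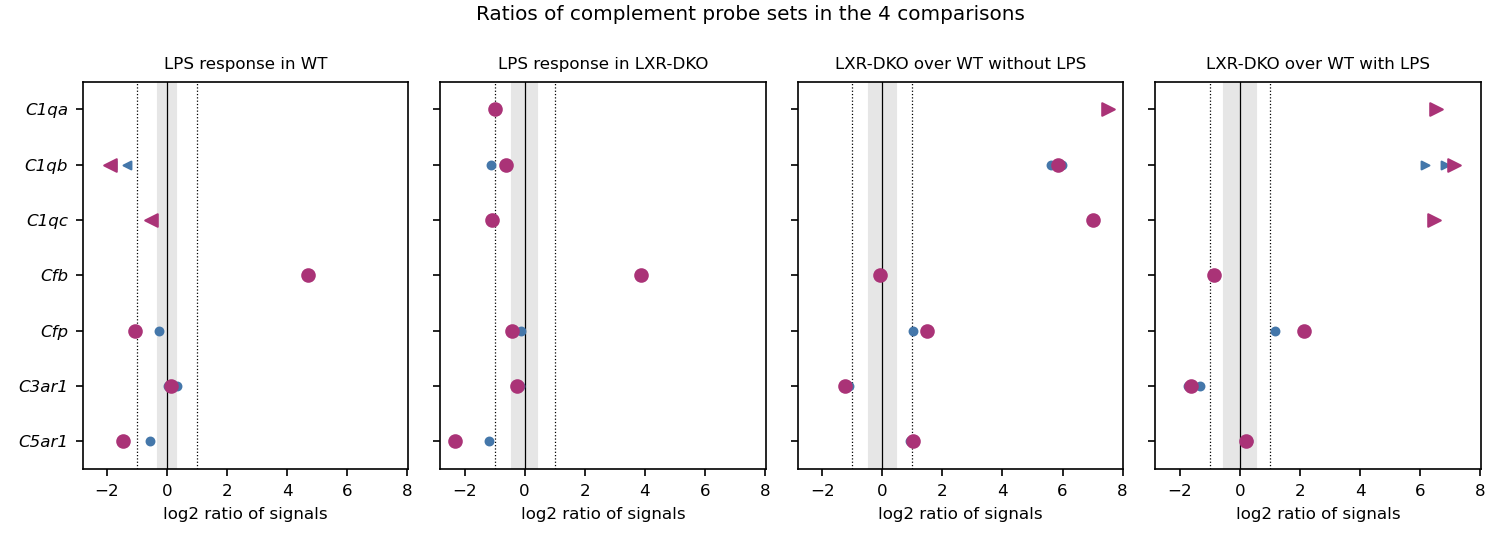
Log2 ratio (horizontal axis) of each member probe set in the 4 comparisons, with the probe set used in purple and the others in blue; triangles are lower limits, the grey band is the spread between probe sets of a gene, and dotted lines mark 2-fold. Cfb was far to the right in both LPS responses, C5ar1 to the left in both, and the C1q genes far to the right in both genotype comparisons.

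Counted together, the WT response to LPS held 1 of 6 measured members at least 2-fold higher (Cfb), against 2.93% of all genes measured, and 3 were at least 2-fold lower (C1qb, Cfp and C5ar1), against 4.79%, with C1qc not counted since its limit is under 2-fold. In LXR-DKO 1 of 7 was higher (Cfb), against 6.23%, and 2 were lower (C1qc and C5ar1), against 1.82%. The median log2 ratio of the members was -0.79 in WT and -0.62 in LXR-DKO, and that of all genes -0.05 and 0.02. In LXR-DKO over WT without LPS, 5 of 7 were higher (C1qa, C1qb, C1qc, Cfp and C5ar1), against 12.7%, and 1 was lower (C3ar1), against 9.28%. With LPS 4 of 7 were higher (the C1q genes and Cfp), against 17.8%, and 1 was lower (C3ar1), against 8.76%. Members' medians were 1.50 and 2.14, and those of all genes 0.05 and 0.15. For the difference of the responses, LXR-DKO minus WT, 1 of 5 with a known direction was at least 2-fold higher (C1qb), against 7.71%, and 0 were lower, against 1.89%. The C1q chains share a locus and, in the protein, a complex, so they are not independent members, and the LPS and genotype comparisons share arrays in pairs.

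**Figure D4:**
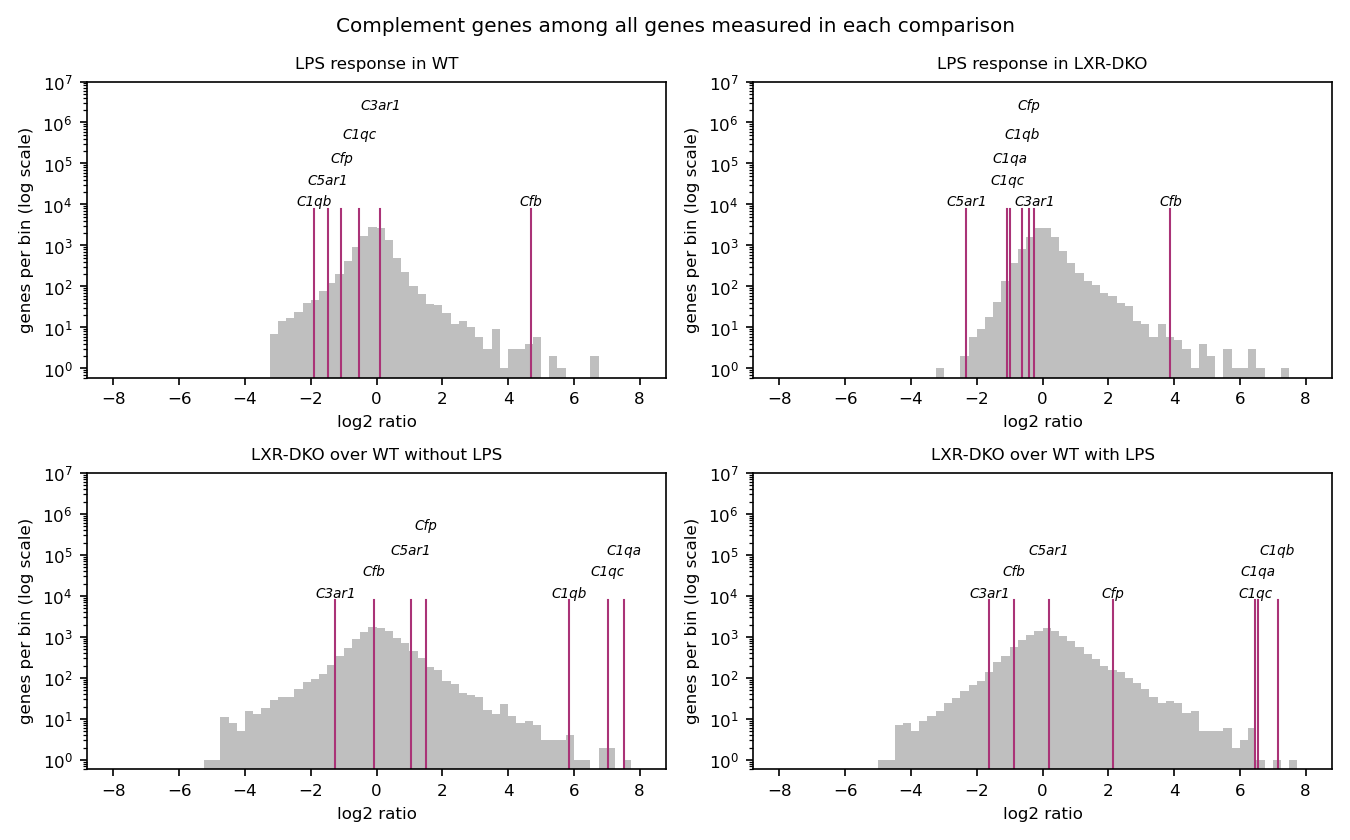
Histograms of the log2 ratio of all genes measured in each of the 4 comparisons (bins of equal width, counts on a log scale), with purple lines at the complement genes measured there. The C1q genes lie near the right end in both genotype comparisons, Cfb near the right end in both LPS responses, and C5ar1 near the left end of the LXR-DKO response.

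The profiles over the 4 groups were compared by the Euclidean distance between floored log2 signals, each gene centred on its own mean. The comparison covered 11842 genes that are no members and reached the floor on some array. Genes whose symbols had the form of a provisional name were left out. The nearest to C1qa were Retnla, which encodes the resistin-like protein RELMα, at a distance of 0.31, the granule protein gene Ngp at 0.54 and the adhesion gene Nectin3 at 0.57, and the same 3 were nearest to C1qc. C1qa and C1qc were 0.47 apart, and C1qb, with 108.4 in WT control, was 1.47 and 1.06 from them and nearest to the calgranulin gene S100a9 at 0.40, Asb2 at 0.61 and Asgr2 at 0.96. Cfb was nearest to the activin antagonist gene Fst at 0.31, the interferon-induced gene Ifit1 at 0.47 and the activin subunit gene Inhba at 0.73. Cfp was nearest to Cenpm at 0.08, Gtse1 at 0.12 and Mbd4 at 0.13, which had 19.6, 24.4 and 27.2 in WT LPS, all below the floor. C3ar1 was nearest to Chid1 at 0.07, Rcbtb2 at 0.08 and Bola2 at 0.09, and C5ar1 to Alyref at 0.33, Sgsm3 at 0.64 and Tifab at 0.67. Signals under the floor were set to it, as for Retnla and Ngp in both WT groups, so such distances partly reflect the floor. With 4 points a small distance is also common for profiles of small range, so these likenesses are descriptions.

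The rest of the pathway was described from a list of 50 other complement genes, of which 40 had probe sets and 24 reached the floor on some array. By the probe set used, 0 of 19 measured in WT were shown to be at least 2-fold higher or lower with LPS, against 2.93% and 4.79% of all genes, but Susd4 was at least 1.93-fold lower, a lower limit from 55.8 against a value under the floor, and another probe set of Clu was at -1.15. In LXR-DKO 4 of 22 were higher with LPS, against 6.23%, and 1 was lower, against 1.82%. In LXR-DKO over WT without LPS, 3 of 19 were higher, against 12.7%, and 3 lower, against 9.28%. With LPS 3 of 22 were higher, against 17.8%, and 3 lower, against 8.76%. These counts of 3 are near the shares of all genes, and all are minimum counts where a ratio is a lower limit. The medians were -0.13 and -0.12, against 0.05 and 0.15 over all genes.

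Among genes that start the classical and lectin pathways, few were measurable. The proteases C1r and C1s travel with C1q in plasma. C1ra had 100.0 and 142.0 in WT, control then LPS, and 130.3 and 139.8 in LXR-DKO, so its genotype ratios of 0.38 and -0.02 were smaller than the spread between probe sets. C1s1 had 16.5, 32.5, 3.9 and 92.3 and so exceeded its control at least 3.19-fold in LXR-DKO LPS. The ficolin gene Fcnb, a lectin pathway recognition protein of myeloid cells, had 39.7, 37.1, 89.7 and 65.1, a log2 ratio of LXR-DKO over WT of 1.18 without LPS and 0.81 with LPS. The other ficolin gene measured, Fcna, went the other way, with 56.1, 43.6, 37.2 and 19.3 and a ratio of -0.59 without LPS. The lectin genes Mbl2, Colec10 and Colec11 and the protease gene Masp2 were below the floor on all arrays, as was Masp1 by the probe set used, while 1 of its other probe sets reached 31.2 in LXR-DKO control. Cfd, the factor D gene, C4a and C4b were not analysed here. Of the terminal pathway, which builds the membrane attack complex, Hc, the C5 gene, C6 and C8b were below the floor on all arrays, and 0 of 2 measured genes were shown to pass 2-fold in either genotype comparison. These were C8a and C8g without LPS and C8g and C9 with LPS, and all these ratios are lower limits. C8a, for one, had 14.5 in WT control and 40.5 in LXR-DKO control.

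Regulators went both ways. Susd4, which encodes a membrane inhibitor of complement, had signals of 55.8 and 12.9 in WT, control then LPS, and 482.9 and 101.6 in LXR-DKO. Its genotype log2 ratio was 3.11 without LPS and at least 1.81 with LPS. It was lower with LPS in LXR-DKO at -2.25, or -0.79 with its other probe set. Clu, which encodes clusterin, an inhibitor of membrane attack, had 65.3, 48.9, 135.2 and 296.2, so LXR-DKO was higher at 1.05 without LPS and 2.60 with LPS. Its 3 other probe sets were at 0.77, 0.24 and -0.36 without LPS, all under 2-fold, while with LPS all were higher, at 2.42 or more. Cd59a, which blocks membrane attack on host cells, had 105.7, 95.0, 35.3 and 82.9, and its other probe set had 89.2, 83.8, 65.5 and 55.9. These gave -1.58 and -0.45 without LPS, and their LPS responses in LXR-DKO differed in sign, at 1.23 and -0.23. Serping1, the C1 inhibitor gene, was at -0.94 without LPS and -0.37 with LPS, and the regulator gene Cr1l at -0.79 and -0.89. A dim probe set of Cr1l, with 11.6, 21.8, 42.8 and 28.3, went the other way without LPS, at 0.57 or more.

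Other receptors and binding partners of complement had a median log2 ratio of LXR-DKO over WT of -0.64 without LPS and -0.72 with LPS. Cd93, once described as a C1q receptor, had signals of 3590.1 and 2640.2 in WT, control then LPS, and 706.2 and 469.9 in LXR-DKO, log2 ratios of -2.35 and -2.49. Lrp1, an endocytic receptor that takes up C1q-marked material, had 1504.4, 1573.0, 198.5 and 467.3, ratios of -2.92 and -1.75. Itgam, the α chain of complement receptor 3, was at -0.80 without LPS and -1.69 with LPS, and its partner chain Itgb2 at -0.49 and -0.72. Of this list, 0 of 6 measured were at least 2-fold higher and 2 lower without LPS, against 12.7% and 9.28% of all genes. With LPS 0 of 7 were higher and 3 lower, against 17.8% and 8.76%. The macrophage complement receptor gene Vsig4 was below the floor on all arrays, while Calr, the calreticulin gene, differed by under 2-fold at 0.01 and -0.26, the former below 0 under scaling to the same 75th percentile and when centred.

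**Figure D5:**
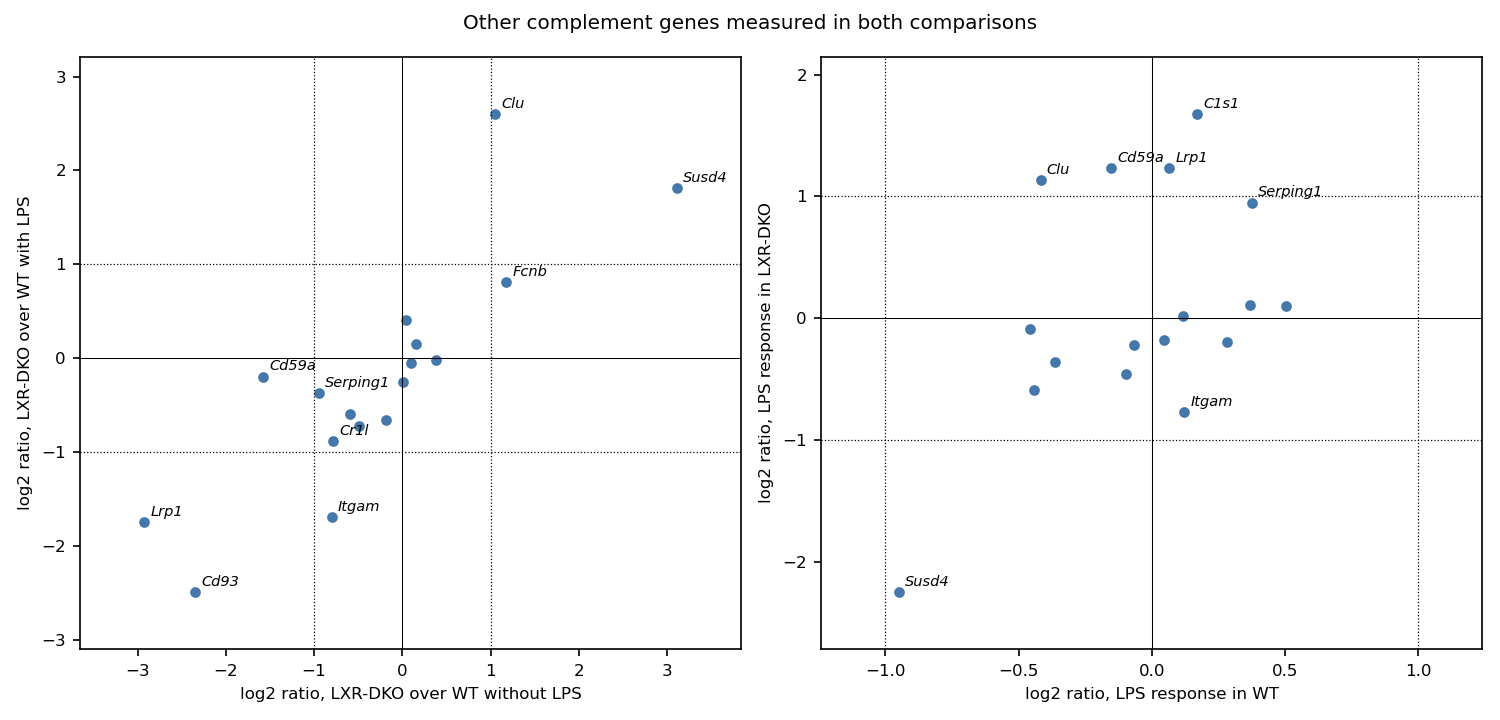
Log2 ratios of the other complement genes measured in both comparisons of a panel, LXR-DKO over WT with LPS against without LPS (left) and the LPS response in LXR-DKO against that in WT (right); dotted lines mark 2-fold, limits are drawn at the limit, and the panels share arrays between their axes. Susd4 and Clu lie to the upper right on the left panel, Cd93 and Lrp1 to the lower left, and on the right panel Clu, Cd59a, Lrp1 and C1s1 lie above the upper dotted line; the Susd4 value in WT is a lower limit on its size.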

How the data were processed

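Transcript levels came from 1 table of 45101 probe sets on 4 single-channel arrays. The deposited values are linear signal intensity values, computed by the authors with MAS5 per the submitters' processing notes, with version and settings not given in the sources used here, and share a trimmed mean of 200.0. Biotinylated cRNA was made with a kit that amplifies in 2 cycles, per the labels' protocols. Of 45037 probe sets that are no controls, 34945 had 1 gene symbol in the platform annotation, 932 several and 9160 none listed; only the first kind was named, with symbols updated through RefSeq gene numbers.

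The deposited signals were not rescaled, and those under the pooled median, 28.9, were set to it as a floor. Each gene is its probe set with the highest mean signal. A gene was measured in a comparison where at least 1 array reached the floor, and the difference of the LPS responses was kept where values under the floor left its direction known. A log2 ratio of 1 was counted. With 1 array per group no test was made. The members and lists were chosen with earlier results of these data known. All members were named, and other genes by size within the lists; Kdm1a and the other neighbours, further probe sets and some pathway genes were named after their values were seen. There were 8 alternatives, on scaling, floor and probe set, and the scalings were applied to the genes around Cfb after seeing the data. Counting was tested on simulated data. Python 3.11.15, numpy 2.4.6 and pandas 2.3.3 were used.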

Additional observations from a re-analysis of the deposited data

Results flagged for a closer look

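Some complement genes had LPS responses of opposite sign in the 2 genotypes with all 4 signals at or above the floor. The difference was not tested, since each response rests on 1 array against 1. Clu alone of these had both responses larger than the spread between probe sets, 0.29 in WT and 0.42 in LXR-DKO; for C3ar1, Itgax and Itgb2 both were smaller, so their signs are not resolved, and for Cd59a and Itgam the WT response was. For C3ar1 the difference, LXR-DKO minus WT, was -0.37 on the log2 scale, from 0.12 and -0.25. For Cd59a it was 1.39 by the probe set used, and its other probe set was negative in both genotypes. Clu differed by 1.55, from -0.42 in WT to 1.13 in LXR-DKO. The integrin chains Itgam, Itgax and Itgb2, which form complement receptors 3 and 4, differed by -0.89, -0.48 and -0.23, with Itgb2 below 0 in WT too after quantile normalization.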

How the results depend on the processing

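Of 249 ratios of members under the 8 alternatives, 221 stayed within the spread between probe sets of the main value. The other 28 moved further, and 0 of the ratios called reversed. Part of this was fixed in advance. The 32 ratios and the counts for probe sets without a suffix could not change, since no probe set used for a member has one. The 32 ratios under centring could not pass the spread, since at most 0.13 was subtracted. The 3 alternatives on scaling moved 0 ratios beyond the spread but shifted the median of all genes, by 0.13, 0.03, -0.19 and -0.30 under 75th percentile scaling for the LPS responses in WT and LXR-DKO and the ratios between genotypes in control and LPS cells. It was -0.14 under quantile normalization in LPS cells and 0.13 was subtracted there by centring. Of 80 counts of members, 7 changed by more than 1.5 times. Members at least 2-fold lower in LXR-DKO with LPS were 2 instead of 1 under 75th percentile scaling and when centred, as Cfb passed the threshold. Members lower with LPS in WT were 5 instead of 3 when the floor was the 25th percentile, where more C1q values count, and 1 when it was the 75th, where only 4 were measured. For the difference of the responses, members higher were 2 with the lower floor and 0 with the higher one, instead of 1, and members lower were 1 instead of 0 after quantile normalization. Over all genes, those higher were 38.0% of those counted in the WT LPS response, but 50.6% under 75th percentile scaling; 57.7% and 67.0% between genotypes in control and LPS cells, but 44.1% and 47.1%; and 80.3% for the difference of the responses, but 70.3% after quantile normalization, where the LPS-cell share was 55.4%. Counts over all genes also moved with the floor. At the 25th percentile 833 genes were higher and 1235 lower for the WT response, instead of 336 and 548, 1541 and 560 for LXR-DKO, instead of 735 and 215, and 1980 and 767 for the difference, instead of 800 and 196; lower in LXR-DKO over WT in control cells were 1863, instead of 1088. At the 75th they were 188 and 150, 324 and 114, and 179 and 75, and between genotypes 744 and 611 in control cells, instead of 1487 and 1088, and 947 and 685 in LPS cells, instead of 2141 and 1053. With no floor the difference had 1358 and 457. In LPS cells 1724 were lower under 75th percentile scaling. No paired analysis was possible because each group has 1 array. Signals near the floor limit the C1q ratios, which in LXR-DKO over WT were at least 3.85 on the log2 scale under every alternative.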
